A study of Mus musculus with 45 samples.

Results

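The comparison concerned pancreatic islets of NZO/HlLtJ females on a diet with 44% fat and fiber (4 libraries) against those on a control diet with 10% fat and fiber (4 libraries). They were taken as the count columns whose sample title names NZO/HlLtJ and ends in F, which gave 8 of the 45 samples of the series. All of these mice were of wild-type genotype per the labels. The 44% diet, which the labels call high in fat and sugar, or the control diet was given from 6 weeks of age, and islets were collected at 15 weeks. NZO/HlLtJ is an inbred strain prone to obesity and type 2 diabetes. The series also holds males and C57BL/6J and CAST/EiJ mice, and its title names genotype by diet effects on diabetes susceptibility as its subject. Nothing in the labels says which animal, or how many, a library came from. A p-value here therefore reflects the variation among these libraries, part of which may be technical.

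The islet is a cluster of endocrine cells within the exocrine pancreas. Most are beta cells, which make and secrete insulin, and the others are alpha (glucagon), delta (somatostatin) and PP (pancreatic polypeptide) cells. When the body needs more insulin, beta cells can enlarge their secretory output, which loads the endoplasmic reticulum (ER) with proinsulin to be folded, and they can divide. Under lasting overload beta cells can lose identity genes and take up genes that they normally keep silent, a state called dedifferentiation. Islets of obese mice are also known to gain macrophages and matrix-producing cells.

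Libraries are called control 1 to 4 and high-fat 1 to 4, numbered in order of deposition, which pairs none of them. Total counts ran from 71452639 in high-fat 2 to 109950216 in control 2. The sample numbers in the titles fall in 3 runs of consecutive numbers that the diets do not share evenly: control 1 and 2 and high-fat 1 and 2 are in the first run, control 3 and 4 in the second, and high-fat 3 and 4 in the third. What the runs stand for is not stated. Beyond the first run, therefore, diet and run cannot be told apart within these females, and a comparison within the first run rests on 2 libraries against 2. Ins1 and Ins2 were among the 3 most abundant genes in all 8 libraries, Xist ran from 531 to 1075 CPM, and the Y-linked Ddx3y was at most 0.0186 CPM. CPM here are read counts normalised to the library total after trimmed mean of M values scaling. Digestive enzyme genes of acinar cells, the exocrine cells around the islet, held 2.87%, 9.69%, 3.0% and 2.11% of counts in control 1 to 4 and 7.54%, 3.97%, 7.17% and 10.3% in high-fat 1 to 4. The mean share was 7.23% ± 2.58 (SD, n = 4) on the high-fat against 4.42% ± 3.54 (n = 4) on the control diet (two-sided exact permutation p = 0.286, the smallest possible being 0.0286).

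The first question was which genes differed between the diets. Of 17140 genes tested, 1471 were called higher (8.58%) and 898 lower (5.24%) on the high-fat diet at an adjusted p of 0.05 (2369 or 13.8% in all), and 682 of the higher but 119 of the lower genes changed by 1 or more on the log2 scale. The median gene did not move (log2 fold change 0.01). Genes of trypsinogens (digestive proteases), cell division, macrophages, antigen presentation, connective tissue and ER protein folding were higher. Glucagon, somatostatin, the alpha cell factor Irx2 and some exocytosis genes were lower. Of 14 markers of other endocrine cells, 4 were lower and 3 higher. Of the called genes, 2090 had no overlap between the 4 high-fat and 4 control libraries, against 3588 (20.9%) of all genes tested. The number range was also fitted on all 24 female libraries of the 3 strains, in which the other strains hold the runs in both diets. In that fit 1669 genes were called higher (8.71%) and 1237 lower (6.45%), and 1860 of the 2369 genes were called again. It takes a run to shift a gene alike in all 3 strains, which was not tested. It also includes 3 high-fat CAST/EiJ libraries that stood apart, as described below. Of the genes named below as called, Aldh1l2, Areg, Atp5o, Cdh5, Fabp5, Gpx3, Irs1, Krt19, Ldha, Oat, Pdk1, Ppy, Pyy, Reg3g, Sdha, Socs2, Sv2a and Try5 did not pass in that fit. Without CAST/EiJ, a range fit on 16 females, added after the data were seen, called 1596 genes higher and 1105 lower of 18423. When the range was fitted on the 8 libraries alone, diet rested on the first run. No gene then passed in either direction by edgeR (2761 had an unadjusted p under 0.05). With the acinar score as a covariate of those 8 libraries 100 genes were higher (0.583%) and 47 lower (0.274%). A fit added after the data were seen used that score and the range on 24 female libraries. It called 1659 genes higher and 1189 lower of 19168.

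**Figure D1:**
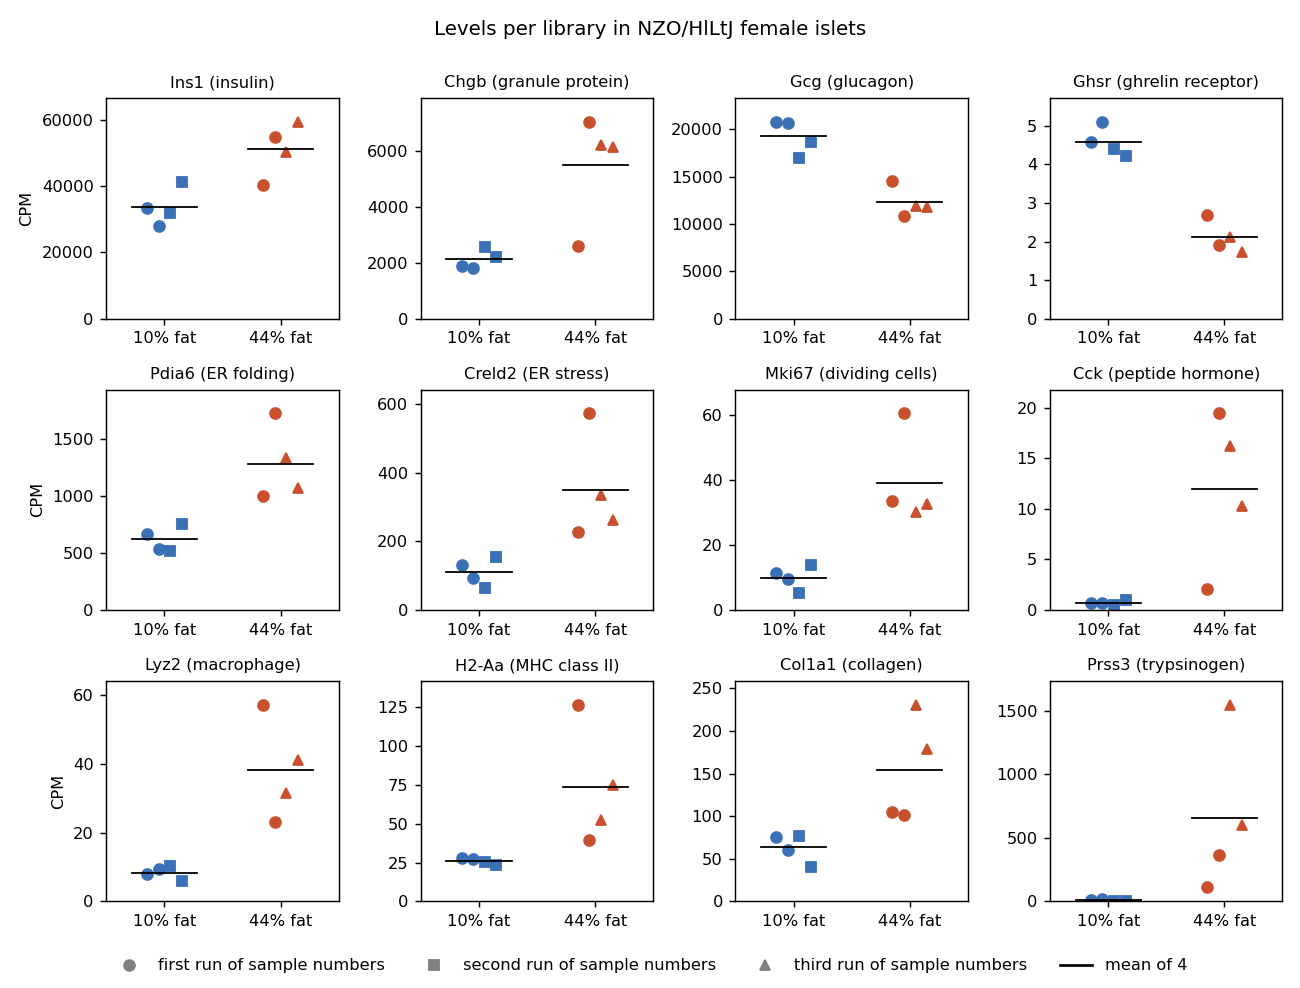
Normalised read counts (CPM, y axis from 0) of 12 genes in each of the 8 libraries by diet, with the run of sample numbers as the symbol and the mean of 4 as a line. The high-fat libraries lie above the control libraries for Chgb, Pdia6, Creld2, Mki67, Cck, Lyz2, H2-Aa, Col1a1 and Prss3, below them for Gcg and Ghsr, and overlap them for Ins1, where high-fat 1 at 40184 CPM is under control 4 at 41088 CPM.

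Hormone genes differed in direction. Ins1, an insulin gene, was at 33471, 28087, 31742 and 41088 CPM in control 1 to 4 and at 40184, 54852, 50294 and 59370 CPM in high-fat 1 to 4, and did not pass the test (log2 fold change 0.62 ± 0.23 SE, adjusted p = 0.0903). The other insulin gene, Ins2 (0.39 ± 0.23, adjusted p = 0.262), and Iapp, which encodes the islet amyloid peptide (0.52 ± 0.20, adjusted p = 0.104), did not pass either. With the range fitted on 24 female libraries Ins1 and Iapp passed by edgeR (adjusted p = 0.0337 and 0.0272), and Ins2 did not (0.184). With the acinar score added to that fit all of them passed (adjusted p = 0.00204 for Ins1, 0.0252 for Ins2 and 0.0023 for Iapp). Gcg, the glucagon gene, fell from 20797, 20696, 16951 and 18626 CPM to 14591, 10865, 11945 and 11808 CPM (-0.63 ± 0.18, adjusted p = 0.0453). All high-fat libraries were under all control libraries. Gcg lies at chr2:62474530-62483650, - strand, GRCm38. Sst, the somatostatin gene, fell by 0.67 on the log2 scale (1438 ± 184 against 2304 ± 160 CPM, SD, n = 4 each), Ppy, the pancreatic polypeptide gene, by 0.87, and Pyy by 0.57. Ppy in the 4 high-fat libraries stood at 834 to 1336 CPM against 1530 to 3020 CPM in controls, and its adjusted p of 0.0364 became 0.192 with the range fitted on 24 female libraries. In these bulk samples fewer cells of a type and less RNA per cell cannot be told apart.

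Markers of the other endocrine cells went both ways. Irx2, a transcription factor of alpha cells, was at 13.3, 13.9, 14.2 and 15.1 CPM in the controls and at 11, 8.24, 7.88 and 8.72 CPM on the high-fat diet (log2 fold change -0.64 ± 0.12, adjusted p = 0.0123). Ghsr, the ghrelin receptor found on delta cells, fell by 1.09 and Rbp4 by 0.63. All 3 had no overlap between the diets. In all, 4 of 14 genes of other endocrine cells were called lower and 3 higher. The list does not split these cells by type, so it gives no single direction for alpha cells. Members of that list called higher were Ttr (1.56 ± 0.31), the thyroid hormone carrier transthyretin, Gc (1.21 ± 0.23), the vitamin D carrier, and Loxl4 (1.95 ± 0.33), which is at most 1.05 CPM in any of the 8 libraries.

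The granule protein Chgb and 3 prohormone-processing enzymes rose. Chgb, chromogranin B, was at 1881, 1819, 2552 and 2209 CPM in the controls and at 2599, 7034, 6204 and 6141 CPM on the high-fat diet (log2 fold change 1.39 ± 0.28, adjusted p = 0.0160). High-fat 1 was close to the controls and the other 3 high-fat libraries were far above them. The prohormone convertases Pcsk1 (0.69 ± 0.16) and Pcsk2 (0.60 ± 0.17) and the carboxypeptidase Cpe (0.67 ± 0.18) rose with adjusted p values of 0.0238, 0.0410 and 0.0348. In all, 4 of 18 members of the hormone and granule list were called higher and 4 lower (median 0.41, against 0.01 over all genes), and Chga, the other chromogranin, had a log2 fold change of 0.17. These calls were sensitive to single libraries: leaving out 1 library at a time left 0 to 9 members higher and 0 to 3 lower, with 0 and 0 without high-fat 3. With the range fitted on 24 female libraries 10 members were higher and 2 lower, and with DESeq2 11 and 4.

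Of 18 beta cell identity factors 3 were called lower and 0 higher, beside 5.24% of all genes called lower. The list's median was -0.28 on all 8 libraries and -0.14 within the first run. Pdx1, a master regulator of beta cells, stood at 211 ± 34.4 CPM (SD, n = 4) on the control and 196 ± 21.3 CPM on the high-fat diet (log2 fold change -0.10 ± 0.13, adjusted p = 0.627). Mafa had a value of -0.10 ± 0.27 and Nkx6-1 of -0.33 ± 0.11 (adjusted p = 0.834 and 0.0780). The lower ones were Isl1 (-0.49 ± 0.10), at 61.0 to 66.2 CPM in controls and 36.7 to 49.3 CPM on the high-fat diet, Pax6 (-0.36 ± 0.10) and the carbohydrate-response factor Mlxipl (-0.60 ± 0.16). Only 1 was called lower without control 1, 3 or 4 or high-fat 2 or 3, 2 without control 2, and 4 without high-fat 1. Ucn3, a marker of mature beta cells, had a log2 fold change of -0.37 ± 0.15 (adjusted p = 0.123).

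Of 14 genes of glucose sensing and ion channels 3 were called lower and 1 higher (median -0.16, and -0.02 within the first run). The glucose transporter Slc2a2 (-0.47 ± 0.22) and G6pc2, the islet glucose-6-phosphatase (0.14 ± 0.16), did not pass. Trpm5, a calcium-activated cation channel, was at 98.1, 104, 83.6 and 83.5 CPM in the controls and 70.9, 45, 47.0 and 63.8 CPM on the high-fat diet (-0.69 ± 0.15, adjusted p = 0.0206). Pcx, pyruvate carboxylase (-0.77 ± 0.21), and the granule zinc transporter Slc30a8 (-0.49 ± 0.14) were the other members called lower, and the beta cell ER oxidoreductase Ero1lb (0.79 ± 0.21) was the member called higher. Without single libraries 0 to 5 members were lower and 0 to 2 higher, with none called without control 1, control 2 or high-fat 3. Among 17 receptors of beta cell hormones, Adra2a, the adrenergic receptor that restrains insulin release, rose (0.60 ± 0.12, 170 ± 22.8 against 114 ± 10.9 CPM). Irs1, an adaptor of insulin signalling whose exons overlap another gene and whose value is therefore uncertain, fell by 0.53. The incretin receptors Glp1r (-0.37 ± 0.14) and Gipr (-0.31 ± 0.13) and the prolactin receptor Prlr (-0.12 ± 0.22) did not pass, and Tph1, the serotonin-synthesis enzyme that rises in islets of pregnancy, was at most 0.55 CPM in any library.

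In the exocytosis machinery 5 of 16 genes were called lower and 1 higher. Rims2, a scaffold of the release site, was at 38.5 to 40.7 CPM in controls and 27.2 to 33.2 CPM on the high-fat diet (log2 fold change -0.40 ± 0.08, adjusted p = 0.0156). Rph3al (-0.40 ± 0.09), the SNARE protein Stx1a (-0.45 ± 0.11) and the vesicle protein Sv2a (-0.47 ± 0.13) fell by similar amounts, each without overlap. Ptprn, a granule membrane protein and autoantigen of type 1 diabetes, rose from 588 ± 62.0 to 1148 ± 321 CPM (0.98 ± 0.19, adjusted p = 0.0143). Without single libraries 1 to 5 members were called lower, 1 of them without high-fat 3 and 2 without control 1, 2 or 3 or high-fat 4.

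The list of dedifferentiation markers had 6 of 11 members called higher and 1 lower. Aldh1a3, an aldehyde dehydrogenase that marks failing beta cells, was at 60.5, 58.1, 24.3 and 55.7 CPM in controls and 102, 240, 176 and 135 CPM on the high-fat diet (log2 fold change 1.73 ± 0.32, adjusted p = 0.0119). Cck, the gut hormone cholecystokinin (chr9:121489825-121495689, - strand, GRCm38), was near the floor in controls, at 0.706, 0.696, 0.501 and 0.966 CPM, and at 2.05, 19.5, 16.2 and 10.3 CPM on the high-fat diet (4.08 ± 0.59, adjusted p = 0.00622). The increase was seen in all 4 high-fat libraries and was smallest in high-fat 1. Gast, the gastrin gene, followed the same pattern at lower levels (3.03 ± 0.65), with 0.250 CPM in high-fat 1, inside the control range of 0.0786 to 0.272 CPM. Vim (0.83 ± 0.14), Serpina7 (0.71 ± 0.17) and Fabp5 (0.63 ± 0.16) rose, and Cd81, a surface protein of stressed or immature beta cells, fell by 0.28. Of 20 genes that beta cells normally keep silent, 3 were called higher, namely Oat (0.50 ± 0.11), Arhgdib (1.21 ± 0.28) and Ldha (0.57 ± 0.15). This count ran from 0 without high-fat 4 to 11 without high-fat 2, and was 1 without control 1, control 4 or high-fat 3. The median of these 20 genes was 0.54 on all 8 libraries and 0.20 within the first run. Vim and Arhgdib are also expressed in connective tissue and blood cells, whose markers were higher in the same libraries, and their part in these values was not tested.

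Genes of the unfolded protein response, which raises folding capacity when misfolded protein collects in the ER, had no member called lower. Several of these genes are known to be switched on by the factors ATF6 and XBP1 through an ER stress response element, in which CCAAT and CCACG lie 9 bases apart. It was searched for as CCAAT, any 9 bases and CCACG on both strands in the RefSeq promoters (GRCm38.p6, 250 bases before to 50 after the start), a search added after the list's values were seen. The CCAAT box searched for further below is part of this motif. A match was found in 7 of the 17 list members with a promoter entry (41.2%), against 35 of 27025 promoters of all genes (0.13%). The 7 are shown because they include 5 of the 9 members called higher. Capitals mark the element, in either orientation, with 20 bases to each side, read toward the gene's start.
Hspa5 (chr2:34772005-34772063, + strand): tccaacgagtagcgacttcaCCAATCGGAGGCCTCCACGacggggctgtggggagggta
Hsp90b1 (chr10:86705513-86705676, - strand): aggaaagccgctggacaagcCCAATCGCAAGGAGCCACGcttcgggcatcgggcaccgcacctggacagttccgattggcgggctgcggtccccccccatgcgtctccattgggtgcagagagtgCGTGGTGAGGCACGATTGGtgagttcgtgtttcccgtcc
Pdia6 (chr12:17266471-17266529, + strand): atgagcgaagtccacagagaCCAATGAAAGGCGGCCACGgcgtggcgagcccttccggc
Dnajc3 (chr14:118937807-118937865, + strand): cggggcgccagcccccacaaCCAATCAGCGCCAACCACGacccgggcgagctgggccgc
Creld2 (chr15:88819500-88819558, + strand): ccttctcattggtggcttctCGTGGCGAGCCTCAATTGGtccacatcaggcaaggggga
Calr (chr8:84847055-84847113, - strand): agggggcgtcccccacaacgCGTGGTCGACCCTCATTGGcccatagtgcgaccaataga
Syvn1 (chr19:6046512-6046570, + strand): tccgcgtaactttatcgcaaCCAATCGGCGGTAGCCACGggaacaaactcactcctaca

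Of the 20 genes of the unfolded protein response 9 were called higher and 0 lower (median 0.74, and 0.80 within the first run). Hspa5, the ER chaperone BiP, was at 2688, 2207, 1353 and 2828 CPM in controls and 3020, 6262, 3456 and 3644 CPM on the high-fat diet, with no overlap, but did not pass (log2 fold change 0.86 ± 0.28, adjusted p = 0.0683), while with the range fitted on 24 female libraries its adjusted p was 0.0136. Pdia6, a protein disulfide isomerase, passed at 672, 539, 520 and 757 CPM against 1004, 1730, 1335 and 1072 CPM (1.06 ± 0.20, adjusted p = 0.0130). High-fat 2 was the highest of the 8 libraries for both genes. Creld2 (1.67 ± 0.34), the prolyl isomerase Fkbp11 (1.49 ± 0.19), Sdf2l1 (1.20 ± 0.28), the co-chaperone Dnajc3 (0.83 ± 0.21), Hsp90b1 (0.79 ± 0.20) and the calcium-binding chaperone Calr (0.72 ± 0.18) rose as well, and Syvn1, a ligase of ER-associated degradation, had a value of 0.61 ± 0.34 (adjusted p = 0.241). Leaving out 1 library at a time left 3 to 11 members called, 3 of them without control 3, the library lowest in these genes, or without high-fat 3. With the acinar score as a covariate of the 8 libraries 2 were called. With that score and the range fitted on 24 female libraries 13 were called higher.

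The integrated stress response, a related pathway that stops translation and induces Atf4 targets, had 3 of 20 members called lower and 0 higher (median -0.40). Vldlr (-0.84 ± 0.17), the stress sensor Sesn2 (-0.73 ± 0.15) and the folate enzyme Aldh1l2 (-0.60 ± 0.17) fell (1 to 4 members without single libraries, 1 without high-fat 3), and Ddit3, which encodes the death-promoting factor CHOP, stood at 18.2 to 34.8 CPM in controls and 11.3 to 24.7 CPM on the high-fat diet (-0.45 ± 0.27, adjusted p = 0.269). Among 15 antioxidant genes, the thioredoxin Txn1 (0.77 ± 0.12) and the peroxiredoxin Prdx1 (0.40 ± 0.10) were 2 of the 4 called higher, while Nqo1, a target of the factor Nrf2, fell from 13.4 ± 0.929 to 5.47 ± 2.66 CPM (-1.28 ± 0.27) and Gpx3 fell by 0.41. Txnip and Arrdc4, arrestins induced by glucose, were the members called higher among 9 glucose-induced genes. Txnip was at 235, 228, 287 and 139 CPM in controls and 224, 671, 506 and 945 CPM on the high-fat diet (1.41 ± 0.38, adjusted p = 0.0362), so that high-fat 1 stayed within the control range, and Arrdc4 changed by 1.25 ± 0.26. Without high-fat 3 no member was called higher, and 5 were higher without high-fat 1.

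Cell cycle genes had the most members called higher of the lists. Of 31 cell cycle genes 28 were called higher and 0 lower, and 30 had no overlap between the diets. The median was 1.64, and 1.55 within the first run. Mki67, a marker of dividing cells (chr7:135689788-135716379, - strand, GRCm38), was at 11.3, 9.50, 5.19 and 14 CPM in controls and at 33.7, 60.7, 30.2 and 32.7 CPM on the high-fat diet (log2 fold change 1.99 ± 0.31, adjusted p = 0.00782). Every high-fat library, high-fat 1 included, was above every control. The mitotic kinase Cdk1 (2.01 ± 0.35), the survivin gene Birc5 (2.32 ± 0.38), the spindle motor Kif11 (1.54 ± 0.22), the nucleotide reductase Rrm2 (1.44 ± 0.17), the replication helicase subunit Mcm5 (1.43 ± 0.18) and the S-phase factor E2f1 (0.74 ± 0.11) rose. The members that did not pass were Pcna (0.34 ± 0.11, adjusted p = 0.0559), Aurka (0.62 ± 0.21, adjusted p = 0.0715) and Ccne1 (0.47 ± 0.26, adjusted p = 0.226). Without 1 library at a time 24 to 29 members were called, and with the acinar score as a covariate of the 8 libraries 7. With that score and the range fitted on 24 female libraries 30 were called higher. Of 12 cell cycle inhibitors and senescence genes, Glb1, which encodes the senescence-linked beta-galactosidase, and Ccng1 were called higher (0.59 ± 0.12 and 0.42 ± 0.10), and Cdkn1a, the inhibitor p21, had a value of -0.22 ± 0.19. The bulk values do not say which cells divided.

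Genes of late cell division are known to carry a cell cycle homology region (TTTGAA or TTCGAA) together with CCAAT boxes in their promoters. In RefSeq promoters, searched on both strands, 13 of 26 members with an entry held both motifs (50%), against 7.7% of all 27025 promoters. Of these 13, 12 were called higher, a share similar to that of all members with an entry, 23 of 26. The stretches of 3 members are shown as examples with the matches in capitals, read toward the start.
Mki67 (chr7:135716452-135716587, - strand): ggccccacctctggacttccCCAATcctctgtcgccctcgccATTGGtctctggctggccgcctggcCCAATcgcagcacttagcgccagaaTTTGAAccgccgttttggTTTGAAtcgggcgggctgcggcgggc
Cdk1 (chr10:69352913-69353140, - strand): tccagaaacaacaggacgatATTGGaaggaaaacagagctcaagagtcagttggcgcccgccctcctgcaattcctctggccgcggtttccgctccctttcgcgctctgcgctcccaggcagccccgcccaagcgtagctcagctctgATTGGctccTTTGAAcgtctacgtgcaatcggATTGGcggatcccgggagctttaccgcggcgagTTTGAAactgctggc
Kif11 (chr19:37376317-37376381, + strand): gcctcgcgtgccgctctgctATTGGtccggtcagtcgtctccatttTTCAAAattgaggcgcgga
A match in these windows is a description of the letters and not a measured binding site.

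**Figure D2:**
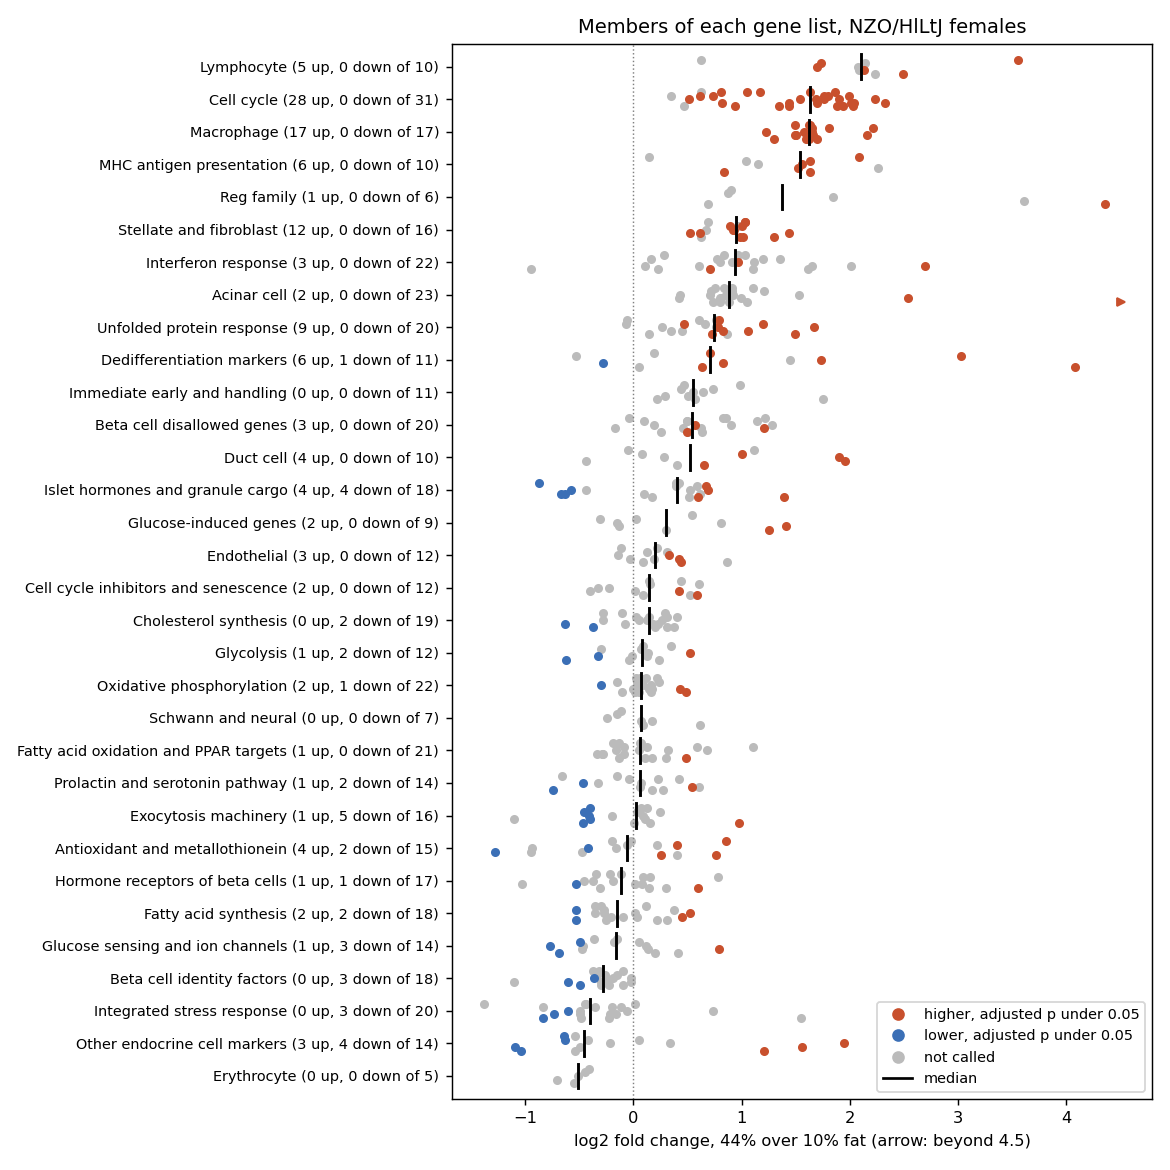
Log2 fold change (x axis, 44% over 10% fat) of every tested member of 32 gene lists in NZO/HlLtJ females, 1 row per list, with called genes in colour and the list median as a bar. The cell cycle row (28 of 31 called higher) and the macrophage row (17 of 17) lie wholly to the right of 0, while the rows of metabolism centre near 0.

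Macrophage markers were higher in every high-fat library than in any control. All 17 macrophage genes tested were called higher (median 1.62, and 1.65 within the first run) with no overlap between the diets. Csf1r, the receptor for the macrophage growth factor, was at 8.49, 8.72, 8.53 and 7.83 CPM in controls and 25.2, 12.8, 18.3 and 25.4 CPM on the high-fat diet (log2 fold change 1.30 ± 0.19, adjusted p = 0.00701). Lyz2, lysozyme, was at 7.92, 9.31, 10.4 and 5.84 CPM against 57.2, 23.2, 31.6 and 41.2 CPM (2.21 ± 0.27, adjusted p = 0.00515). The complement gene C1qa (1.5 ± 0.15), the Fc receptor Fcgr3 (1.69 ± 0.17), the lysosomal Cd68 (1.57 ± 0.16) and the mannose receptor Mrc1 (2.16 ± 0.51) rose likewise. Summed over the list, macrophage markers were 97.4 to 105 CPM in controls and 240 to 382 CPM on the high-fat diet. With the acinar score as a covariate of the 8 libraries 3 of the 17 were called. In that fit 0 of the lymphocyte, antigen presentation and interferon genes described next were called. With that score and the range fitted on 24 female libraries, 17 macrophage, 4 lymphocyte, 8 antigen presentation and 8 interferon genes were called higher.

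Lymphocyte and antigen presentation genes rose less evenly. Of 10 lymphocyte genes tested 5 were called higher, among them Ptprc, the pan-leukocyte CD45 gene, at 4.70, 4.30, 4.48 and 3.27 CPM in controls and 28.1, 6.50, 6.12 and 14.5 CPM on the high-fat diet (log2 fold change 1.74 ± 0.44, adjusted p = 0.0308). High-fat 1 and 4 were high and high-fat 2 and 3 were just above the controls. The T cell gene Cd4 (2.49 ± 0.57), the immunoglobulin chain Ighm (2.13 ± 0.49) and Cd52 (1.69 ± 0.42) rose too, and each was highest in high-fat 1 and 4. Leaving out single libraries left 0 to 6 of the lymphocyte genes called, with 0 without control 1, control 2 or control 4. Of 10 genes of antigen presentation 6 were called higher (median 1.54), including the MHC class II chain H2-Aa at 27.8, 27, 25.3 and 23.2 CPM against 127, 39.2, 52.5 and 75.2 CPM (1.52 ± 0.30), H2-Ab1 (1.63 ± 0.33), H2-Eb1 (1.56 ± 0.31) and the invariant chain Cd74 (1.63 ± 0.28). Among 22 interferon response genes Usp18 (0.71 ± 0.11), Zbp1 (2.70 ± 0.58) and Oas1a (0.97 ± 0.27), the last uncertain because it shares sequence with other genes, were called higher and 0 lower. The interferon list's median was 0.94, but its summed level was 616 and 347 CPM in high-fat 1 and 4 and 186 and 207 CPM in high-fat 2 and 3, against 212 to 281 CPM in controls, and without high-fat 1 the median was 0.58.

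**Figure D3:**
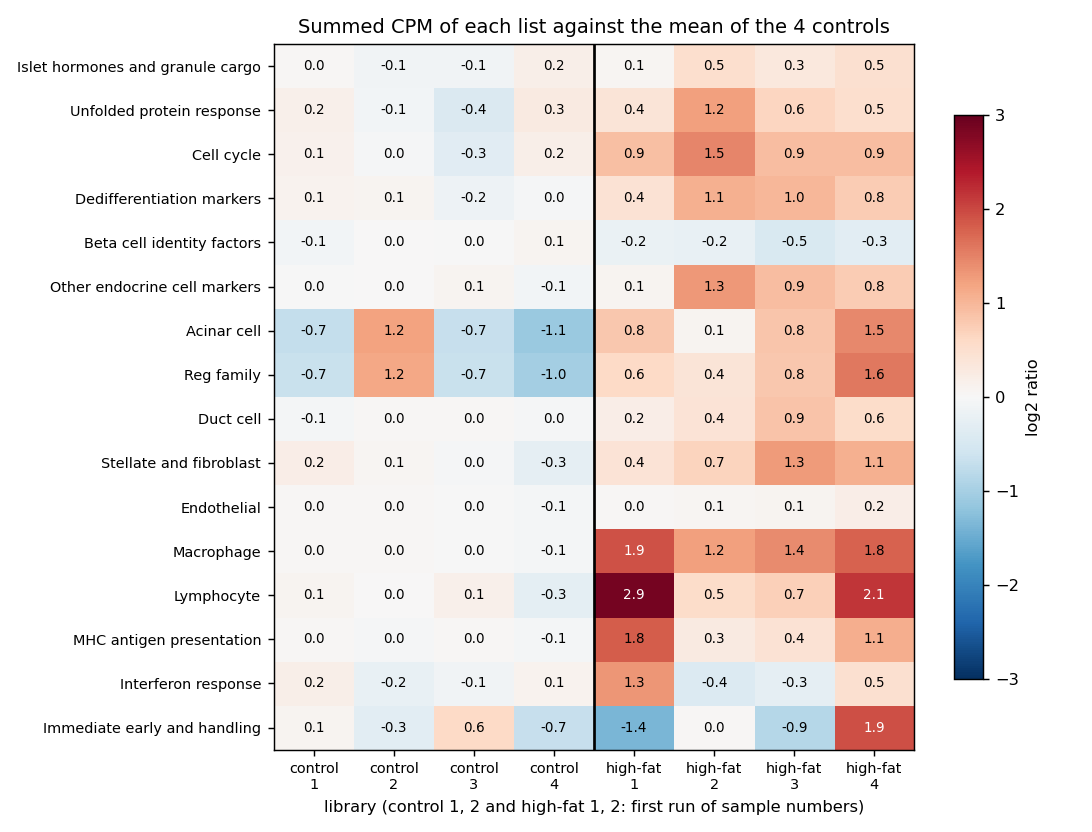
Summed CPM of 16 gene lists in each library as the log2 ratio to the mean of the 4 controls (colour and printed value; columns are libraries). High-fat 1 is highest for macrophage, lymphocyte and antigen presentation genes (1.9, 2.9 and 1.8) and lowest of the high-fat libraries for the unfolded protein response (0.4), while high-fat 2 is the reverse (1.2, 0.5, 0.3 and 1.2).

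Connective tissue genes rose with them. Of 16 genes of stellate cells and fibroblasts 12 were called higher (median 0.95). Col1a1, a collagen I chain, was at 75.8, 60.0, 76.7 and 40.8 CPM in controls and 104, 102, 231 and 178 CPM on the high-fat diet (log2 fold change 1.30 ± 0.29, adjusted p = 0.0212). Col3a1 (0.93 ± 0.20), Col6a2 (1.01 ± 0.22), Col6a3 (0.99 ± 0.16) and fibronectin, Fn1 (1.44 ± 0.28), rose too. High-fat 3 and 4, the libraries of the third run, were highest for Col1a1, and within the first run the list's median was 0.42. Without 1 library at a time 3 to 13 members were called, 3 of them without high-fat 3, and with the acinar score on 8 libraries 0. With that score and the range fitted on 24 female libraries 11 were called higher. Of 12 endothelial genes 3 were called higher, namely Eng (0.44 ± 0.08), Cd34 (0.43 ± 0.10) and Cdh5 (0.33 ± 0.10). No gene was called among 7 Schwann and neural genes (Ngfr 0.62 ± 0.26) or 5 erythrocyte genes (Hbb-bs -0.55 ± 0.36, uncertain for shared sequence, and Alas2 -0.70 ± 0.46).

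Acinar enzyme genes as a list had 2 of 23 members called higher, near the 8.58% of all genes called higher, and a median of 0.89. The median was 0.035 within the first run and 0.15 with the range fitted on 24 female libraries. Without control 2, whose acinar share was 9.69%, 21 members were called. The 2 called on all 8 libraries were trypsinogens. Prss1 (chr6:41458932-41463786, + strand, GRCm38) was at 0.347, 0.325, 0.0983 and 0.0225 CPM in controls and 6.86, 131, 693 and 207 CPM on the high-fat diet (log2 fold change 10.37 ± 1.43, adjusted p = 0.00596). Try5 (chr6:41311233-41316841, - strand, GRCm38) was at 323, 1055, 282 and 223 CPM in controls and 1163, 1881, 3905 and 3830 CPM on the high-fat diet (2.54 ± 0.56, adjusted p = 0.0198), and with the range fitted on 24 female libraries its value was 1.5 (adjusted p = 0.311). Prss3 (6.38 ± 0.85), Gm5771 (8.86 ± 1.23), Gm10334 (8.41 ± 1.15), Gm2663 (10.09 ± 1.55) and 1810009J06Rik (9.86 ± 1.34), which neighbour Prss1 on chromosome 6, filled the first places among the genes with the largest increase. Try5 shares 59.7%, and Prss1 and these 5 genes 69.3% to 88.5%, of their 31-base words with transcripts of other genes, so the split of reads among them, and each single value, is uncertain.

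The rise of the trypsinogen cluster was out of step with the acinar share. Summed over Prss1 and the 5 neighbours, levels were 12.7, 21.3, 5.69 and 5.13 CPM in control 1 to 4 and 205, 1466, 6148 and 2163 CPM in high-fat 1 to 4. Control 2, with 9.69% acinar counts, had 21.3 CPM, while high-fat 2, with 3.97%, had 1466 CPM. C57BL/6J females held 13.9 to 138 CPM over both diets at acinar shares of 0.249% to 26.3%. CAST/EiJ females held 41.5 to 694 CPM on the control and 19.4 to 407 CPM on the high-fat diet, a range that overlaps that of the high-fat NZO/HlLtJ females. NZO/HlLtJ males held 99.2 to 3179 CPM on the control and 12654 to 43012 CPM on the high-fat diet. Reg3g, an antimicrobial lectin induced in injured pancreas, was the member called among 6 Reg genes, at 0.161, 3.32, 0.216 and 0.0561 CPM in controls and 6.65, 30.9, 13.8 and 27.2 CPM on the high-fat diet (4.36 ± 1.01, adjusted p = 0.0235). Its adjusted p was 0.0816 with the range fitted on 24 female libraries. Without control 2 all 6 Reg genes were called and 2 without high-fat 1, while 0 were called without control 1, control 3, high-fat 3 or high-fat 4.

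**Figure D4:**
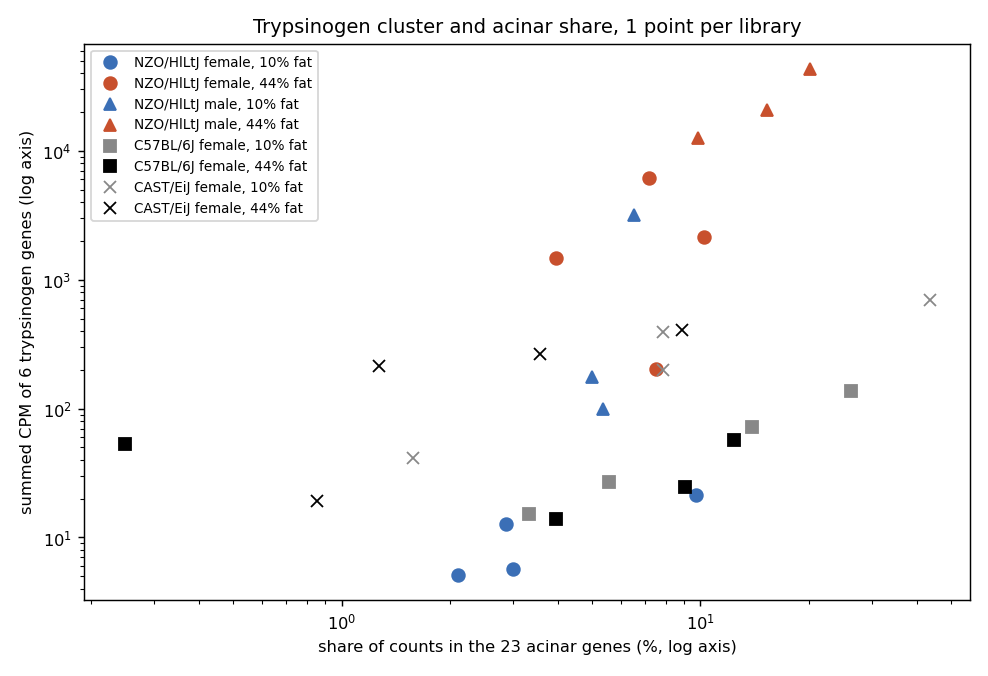
Summed CPM of 6 trypsinogen genes (y, log axis) against the share of counts in 23 acinar genes (x, log axis), 1 point per library for NZO/HlLtJ of both sexes and for C57BL/6J and CAST/EiJ females. The 4 NZO/HlLtJ high-fat females (205 to 6148 CPM) lie above the 4 control females (5.13 to 21.3 CPM) at overlapping acinar shares.

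Duct genes rose in part: Spp1, osteopontin (1.95 ± 0.41), the chloride channel Cftr (1.9 ± 0.43), Anxa2 (0.65 ± 0.12) and the keratin Krt19 (1.01 ± 0.28) were called among 10. Spp1 is also made by macrophages. Immediate early genes, which respond to handling within minutes, had no member of 11 called by edgeR (DESeq2 called 1), with Egr2 at 1.75 ± 0.54 (adjusted p = 0.0559) and Nr4a1 at 0.51 ± 0.31. Their summed level was 4255 CPM in high-fat 4 and 427 to 1687 CPM in the other 7 libraries. The list's median was 0.55 on all 8 libraries and -0.40 within the first run.

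Outside the lists, the other genes with the largest increase were Csn3 (5.95 ± 0.86), a milk casein, Slc5a10 (5.44 ± 0.89), a sugar transporter, and the receptor kinase Ros1 (4.41 ± 0.65). Slc5a10 was at 0.0990 to 0.146 CPM in controls and at 0.272, 8.27, 8.48 and 4.10 CPM on the high-fat diet, so that high-fat 1 was just above the controls and the other 3 far above. The largest decreases were in Areg, Grid2ip, Mcoln3, Pcp4, Kcnj12, T2, Sult1c2, Nefl, Trim66 and Cnr1. Grid2ip, a synaptic scaffold, was at 3.78, 6.44, 6.19 and 3.98 CPM in controls and 1.418, 0.432, 0.323 and 0.264 CPM on the high-fat diet (-3.03 ± 0.50, adjusted p = 0.00950). Mcoln3, a lysosomal calcium channel, fell by 2.81 and Pcp4, a calmodulin regulator whose exons overlap another gene, by 2.16. The growth factor Areg fell by 3.20, with control 3 apart at 10.8 CPM and the other controls at 1.9 to 2.46 CPM. Kcnj12, a potassium channel, fell by 2.04, Cnr1, the cannabinoid receptor, by 1.6, Nefl, a neurofilament that overlaps another gene, by 1.64, T2 by 1.95, Sult1c2 by 1.68 and Trim66 by 1.63. For Grid2ip, Mcoln3, Kcnj12 and Areg high-fat 1 lay nearest to the controls.

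Metabolic lists held calls in both directions, to be read beside the 13.8% of all genes called. Of 22 genes of oxidative phosphorylation 2 were higher, Ndufa4 (0.43 ± 0.12) and Atp5o (0.49 ± 0.10, uncertain because its exons overlap another gene), and Sdha was lower (-0.29 ± 0.09). In glycolysis Eno2, the neuronal enolase, fell from 75.4 ± 4.41 to 48.4 ± 0.726 CPM (-0.62 ± 0.07, adjusted p = 0.00426), Pfkl fell by 0.33 and the kinase Pdk1 rose (0.53 ± 0.15). Among 21 PPAR targets and fatty acid oxidation genes Ucp2, a mitochondrial uncoupling protein of beta cells, rose (0.48 ± 0.12), while Cpt1a, the gate of fatty acid entry into mitochondria, had a value of 0.17 ± 0.24. In fatty acid synthesis Elovl1 (0.45 ± 0.09) and Fads2 (0.52 ± 0.13) rose and Acsl3 and Acaca fell by 0.53 each. Of 19 cholesterol genes 2 were called lower and 0 higher. Ivd, an enzyme of leucine breakdown, and Socs2, a brake on growth hormone and prolactin signals, fell by 0.74 and 0.46, and Tnfrsf11b, osteoprotegerin, rose (0.55 ± 0.14). These 3 were the calls among 14 genes of the prolactin and serotonin list.

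The next question was whether males of the strain responded differently (14 libraries, 3 control and 3 high-fat males). The runs of sample numbers lie the other way round in males. Of them 1 control and 1 high-fat library are in the first run, 2 high-fat libraries in the second and 2 control libraries in the third. Beyond the first run, diet and run cannot be told apart in males either, nor in the difference between the sexes. Of 18517 genes 22 (0.119%) had a higher and 30 (0.162%) a lower diet response in females, and with the number range in the fit 0 and 2 did. Males had 2712 genes called higher (14.6%) and 2047 lower (11.1%) against their own controls, with diet and run arranged as above. The acinar share was 9.81% to 20.2% in high-fat and 4.98% to 6.53% in control males, without overlap, while the shares of the females overlapped. What part the acinar share has in the male values and in the sex differences was not tested. Pcsk1 was among the genes with a difference between the sexes, with a log2 fold change of 0.69 in females and -0.84 in males (adjusted p of the difference 0.0464), as was Adra2a at 0.60 and -0.88 (adjusted p = 0.0431). Irx2 went the other way, at -0.64 in females and 0.79 in males (adjusted p = 0.0431), and so did Rbp4 at -0.63 and 0.44 (adjusted p = 0.0431) and Cd81 at -0.28 and 0.77 (adjusted p = 0.0431). The largest differences toward females were in C2cd4a, a beta cell gene near a diabetes locus (4.43 ± 0.84), Derl3, of ER-associated degradation (2.48 ± 0.39), Muc4 (2.21 ± 0.40) and Srl (2.01 ± 0.31). Derl3 was 71.7 ± 23.4 CPM (SD, n = 4) in high-fat and 13.6 ± 3.39 CPM in control females, and 47.9 ± 10.7 and 50.7 ± 18.6 CPM (n = 3 each) in males. Those toward males were in Slc7a3 (-2.69 ± 0.46), Gfod1 (-2.13 ± 0.35), Ncs1 (-1.74 ± 0.30) and Lonrf2 (-1.72 ± 0.30). With the number range in the fit none of these largest differences, toward either sex, passed by edgeR (adjusted p from 0.0910 for Srl to 0.312 for C2cd4a). The lists of beta cell identity factors, unfolded protein response and exocytosis had no member with a called difference, although their medians were -0.28, 0.74 and 0.02 in females and -0.97, -0.33 and -0.56 in males.

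Females of the other strains were the last comparison (24 libraries in 6 groups). C57BL/6J females had no gene called for diet by edgeR (605 of 19168 with an unadjusted p under 0.05), and the NZO/HlLtJ response was higher for 735 genes (3.83%) and lower for 415 (2.17%). Members of the lists with a higher response in NZO/HlLtJ were 15 of 17 macrophage genes, 15 of 31 cell cycle genes, 12 of 16 stellate and fibroblast genes and 4 of 20 genes of the unfolded protein response. Lyz2 had a difference of 2.45 (adjusted p = 0.000584), Mki67 of 1.53 (adjusted p = 0.0146), Col1a1 of 1.92 (adjusted p = 0.0104) and Pdia6 of 1.09 (adjusted p = 0.0171). The largest differences were in Gm2663 (9.62 ± 2.52), Prss1 (9.41 ± 2.02), Gm10334 (9.03 ± 1.48) and Gm5771 (8.26 ± 1.32) upward and in Mcoln3 (-3.03 ± 0.61), Fam196a (-2.69 ± 0.72), Myo3a (-2.28 ± 0.52) and Cers1 (-2.23 ± 0.48, uncertain because its exons overlap another gene) downward. With the range term Gm2663 did not pass (8.73, adjusted p = 0.0574 by edgeR), while the others did. Mcoln3 was 0.768 ± 0.969 CPM in high-fat and 5.57 ± 1.43 CPM in control NZO/HlLtJ females, and 7.97 ± 1.47 and 6.84 ± 1.25 CPM in those of C57BL/6J (SD, n = 4 each).

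In CAST/EiJ females 40 genes were called higher (0.209%) and 1 lower (0.00522%) for diet. Against CAST/EiJ females, a comparison that shares the 8 NZO/HlLtJ libraries with the previous one, 1220 genes (6.36%) had a higher and 1142 (5.96%) a lower response in NZO/HlLtJ. High-fat CAST/EiJ females 1, 2 and 4 stood apart: the ribosomal pseudogene Rpl9-ps6 was at 9.65 to 23.8 CPM in these 3, at 0.0254 to 0.393 CPM in the other 5 CAST/EiJ females and at 170 to 282 CPM in the 16 females of the other strains. Without these 3 libraries 10 genes were higher and 6 lower, with 1 high-fat CAST/EiJ library left, assumed to vary like the other groups. The largest differences upward were again trypsinogens, Gm5771 (12.49 ± 3.31), Prss1 (10.99 ± 1.75), Gm2663 (10.66 ± 1.93) and 1810009J06Rik (9.97 ± 1.89). The largest downward ones, in Fam213b (-8.09 ± 1.55), 9930111J21Rik1 (-5.90 ± 1.29), Rpl9-ps6 (-5.55 ± 1.03) and 9930111J21Rik2 (-5.41 ± 1.10), of which the last 3 are uncertain for shared sequence, had levels near 0 in control CAST/EiJ females. Rpl9-ps6 was 237 ± 32 CPM in high-fat and 224 ± 20.1 CPM in control NZO/HlLtJ females (SD, n = 4 each).

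**Figure D5:**
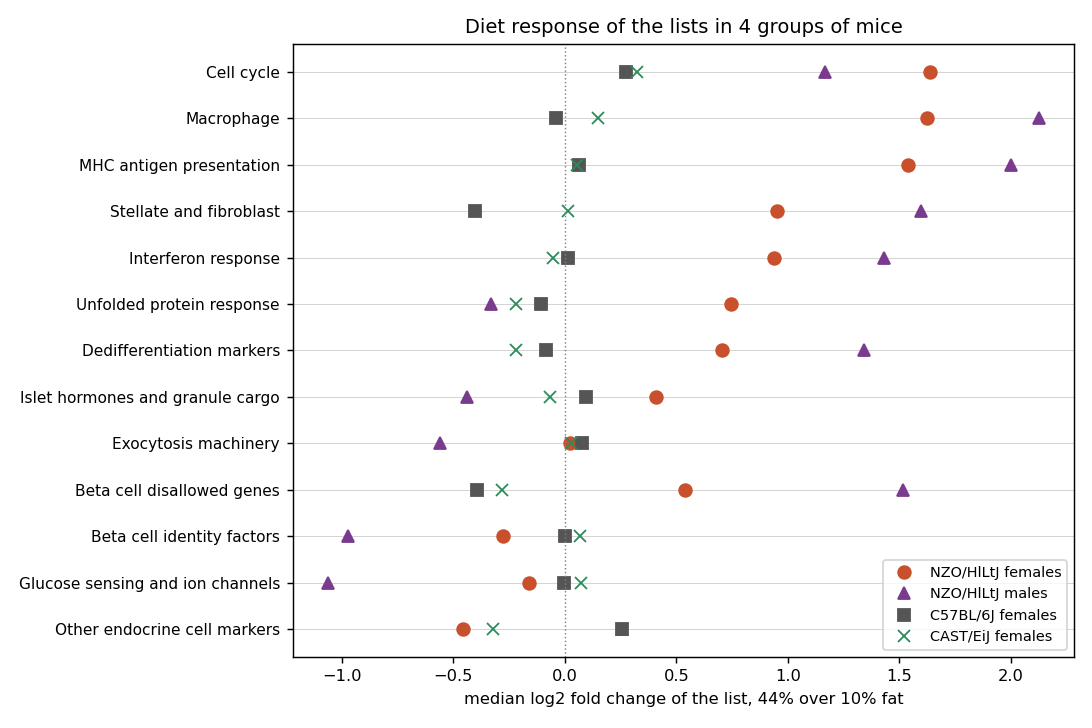
Median log2 fold change (x axis, 44% over 10% fat) of 13 gene lists in NZO/HlLtJ females, NZO/HlLtJ males, C57BL/6J females and CAST/EiJ females, each against its own controls. Cell cycle medians are 1.64, 1.17, 0.27 and 0.32 in this order, and those of the unfolded protein response 0.74, -0.33, -0.11 and -0.22.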

How the data were processed

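Per the labels' protocols, polyA-selected islet RNA was sequenced in read pairs of 150 bp. Expected counts per gene were deposited by the authors for 22904 genes. GRCm38 and DESeq2 are named in the submitters' processing notes. Neither aligner nor counter, nor whether strand was used, is given in the sources used here, and overlapping genes cannot be told apart. Counts were rounded to whole numbers, filtered with filterByExpr at a minimum count of 10, normalised by the trimmed mean of M values method and tested with the edgeR 4.0.16 quasi-likelihood test (R 4.3.3) on the 8 libraries without covariates, with Benjamini-Hochberg adjustment over all genes and a threshold of 0.05. A fold change is high-fat over control diet on the log2 scale with its SE. Interactions used 14 NZO/HlLtJ or 24 female libraries. As acinar score each library's average log2 CPM over 23 acinar genes was used. Gene positions come from the annotation deposited with the counts, and gene types from GENCODE M21 (GRCm38).

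The members, the 34 gene lists (498 of 507 genes in the table) and the tests were chosen with earlier results of these data known. Genes named are the 10 each way with the largest change among protein-coding genes called, with an average log2 CPM of 1 or more and no overlap between the diets, also within the first run, a set of islet genes named whatever their values, up to 4 called members of each list by p (or 2 uncalled ones where none was called), and the 4 largest each way of each interaction. A few genes that meet this rule are not reported here. Other list members are named where a count or a sequence turned on them, after their values were seen. Genes with 50% or more of their 31-base words shared with other genes' GENCODE M21 transcripts, or 20% of their exon bases with another gene, are called uncertain. On counts simulated for 16917 genes of this comparison, the test called 83 of 100 genes changed by 1 on the log2 scale and 99 of 100 changed by 2, and 9 of its 191 calls were of unchanged genes. The changed genes were drawn from those with an average log2 CPM of 1 or more. Noise was simulated for each gene independently, without an effect of run or acinar share that genes have in common. Replicates of a group differed by at least 71.9 in chi-square per degree of freedom, and none was counted as a duplicate. DESeq2 1.42.0, other scalings and filters, other sample sets, a number range term, the acinar score and leaving out each library were tried as alternatives.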

Additional observations from a re-analysis of the deposited data

Results flagged for a closer look

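In control 2 the acinar share of 9.69% stood apart from the other controls, and so did Try5 at 1055 CPM, Reg3g at 3.32 CPM and Pcp4 at 9.78 CPM. Control 3 stood apart for Aldh1a3 (24.3 CPM), Areg (10.8 CPM), Gpx3 (262 CPM), Socs2 (25.3 CPM) and Syvn1 (63.7 CPM), and control 4 for Fam196a (1.63 CPM), Iapp (17273 CPM), Sst (2542 CPM) and Ucp2 (215 CPM). In each of these the gap to the nearest other library was above the 95% critical value of Dixon's test for 4 samples. Chance gives about 1 such case in 20 groups. Both diet groups were checked for nearly every named gene, 127 called and 26 uncalled, so many such cases are expected by chance.

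High-fat 1 stood apart by the same measure for Areg (1.37 CPM), Grid2ip (1.418 CPM), Kcnj12 (5.67 CPM), Mcoln3 (2.21 CPM), Myo3a (1.123 CPM) and Pdk1 (9.85 CPM), and high-fat 2 for Ero1lb (5610 CPM), Mki67 (60.7 CPM), Ccne1 (7.39 CPM), Rph3al (67.0 CPM) and Tnfrsf11b (17.1 CPM). High-fat 4 stood apart for Egr2 (2.63 CPM).

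Diet effects differed between groups by edgeR's interaction test for 52 genes between the sexes, 1150 between NZO/HlLtJ and C57BL/6J females and 2362 between NZO/HlLtJ and CAST/EiJ females. On the log2 scale, female minus male, the differences were 4.43 for C2cd4a, 2.48 for Derl3, 2.21 for Muc4, 2.01 for Srl, -1.72 for Lonrf2, -1.74 for Ncs1, -2.13 for Gfod1 and -2.69 for Slc7a3. Against C57BL/6J they were 9.62 for Gm2663, 9.41 for Prss1, 9.03 for Gm10334, 8.26 for Gm5771, -2.23 for Cers1, -2.28 for Myo3a, -2.69 for Fam196a and -3.03 for Mcoln3. Against CAST/EiJ they were 12.49 for Gm5771, 10.99 for Prss1, 10.66 for Gm2663, 9.97 for 1810009J06Rik, -5.41 for 9930111J21Rik2, -5.55 for Rpl9-ps6, -5.90 for 9930111J21Rik1 and -8.09 for Fam213b.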

How the results depend on the processing

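The 127 named genes called for diet in NZO/HlLtJ females kept their direction in every alternative that gave them a value. That was all of them, except that the minimum count of 50 left 123. This was largely fixed in advance, because these genes were picked as called on the same libraries that the alternatives use. A gene without overlap between the diets can hardly change direction when a library is left out. Counts of called members in the smaller lists moved by more than 1.5 times without single libraries: glycolysis 0 to 2 higher and 1 to 2 lower, oxidative phosphorylation 0 to 2 and 0 to 1, fatty acid synthesis 1 to 2 and 1 to 3, fatty acid oxidation 0 to 2 higher, cholesterol 0 to 2 lower, antioxidant 1 to 3 and 0 to 2, prolactin and serotonin 0 to 2 and 1 to 4, receptors 0 to 2 lower, inhibitors 0 to 4 higher, duct 1 to 5, endothelial 1 to 3, interferon 2 to 11 and antigen presentation 4 to 8 higher. The counts of genes higher and lower (1471 and 898) became 2215 and 1605 with DESeq2, 866 and 448 on 14 NZO/HlLtJ libraries, 0 and 0 with the number range term on 8 libraries, 0 and 3 with it on 14, 0 and 0 in the first range alone (2255 genes at an unadjusted p under 0.05 by edgeR) and 100 and 47 with the acinar score. Added after seeing the data, a fit on 24 female libraries without the range term gave 1943 and 1473. Another on these 24, with the range term and the acinar score, gave 1659 and 1189. With the range term on 16 NZO/HlLtJ and C57BL/6J females, also added after seeing the data, the counts were 1596 and 1105. Leaving out each library gave 567 to 1716 higher and 240 to 1431 lower, the fewest without high-fat 3 and the most without high-fat 1. The cause of these changes was not tested, except that fewer libraries enter some fits.

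The sex differences (22 and 30) became 0 and 2 with the range term, 674 and 806 with DESeq2, and 0 to 113 and 0 to 87 without single libraries. Those against C57BL/6J (735 and 415) became 584 and 364 with the range term, 1189 and 838 with DESeq2, and 455 to 901 and 194 to 930 without single libraries. Those against CAST/EiJ (1220 and 1142) became 672 and 548 with the range term, 10 and 6 without 3 high-fat CAST/EiJ libraries (added after seeing the data), and 776 to 1453 and 691 to 1560 without single libraries. Without those 3, Rpl9-ps6 (3.10), 9930111J21Rik2 (2.00) and 9930111J21Rik1 (0.35) changed direction against CAST/EiJ.

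Diet values of uncalled genes changed sign as follows. With the range term on 8 libraries Alas2 was 0.236, Mafa 0.333 and Prlr 0.246, and in the first range alone Alas2 was 0.242, Hbb-bs 0.00127, Mafa 0.334 and Prlr 0.246. With the term on 14 libraries Alas2 was 0.506, Hbb-bs 0.344 and Prlr 0.0162, on 24 Prlr was 0.045, and on 16 NZO/HlLtJ and C57BL/6J females, added after seeing the data, Alas2 was 0.00862, Mafa 0.0668 and Prlr 0.0898. With the acinar score Cpt1a was -0.104, Mafa 0.222 and Prlr 0.452. Without single libraries Mafa ran from -0.315 to 0.0932 and Prlr from -0.273 to 0.00716.

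No paired analysis was possible because the labels give no replicate numbers. With 4 libraries a group, genes changed by 1 on the log2 scale were called in 83 of 100 simulated cases, so smaller changes can be missed.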
